A study of Danio rerio with 32 samples.

Results

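The 10 genes described here mark the blood and endothelial lineages of the zebrafish embryo: *tal1*, *lmo2*, *etv2*, *fli1a*, *kdrl*, *gata1a*, *gata2a*, *runx1*, *gfi1aa* and *myb*. They and the other gene lists below were chosen by name, with earlier results of these data known. All 10 were found among the 32057 genes of the count table. Tailbuds, the growth zone at the posterior end of the embryo, were taken at the 16-somite stage from wild-type (WIK) embryos and from mutants in 2 genes of the cohesin complex, the protein ring that holds sister chromatids together and shapes chromatin loops. The mutants were homozygous (rad21-/-) or heterozygous (rad21+/-) for the *rad21*nz171 allele, or homozygous for *stag2b*nz207 (stag2b-/-). Each genotype was left untreated or was kept from 4 hpf until dissection in 2.5 µM BIO (6-bromoindirubin-3'-oxime), a Gsk3 inhibitor that stimulates canonical Wnt signalling. This gave 8 groups of 4 libraries, each library from a pool of 80 tailbuds. For the *rad21* line, head DNA of each embryo gave its genotype before tailbuds were pooled. The alleles are germline mutations and are not restricted to a cell type.

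Blood and vessels arise together in the posterior lateral mesoderm. The bHLH-PAS factor *npas4l* (*cloche*) acts at the top of this programme and switches on *etv2*, an ETS factor that commits mesoderm to endothelium, and *tal1*, a bHLH factor that commits it to blood. *lmo2* encodes the bridging subunit of the complex that Tal1 forms with GATA factors. *gata1a* is the master regulator of primitive red cells, and *gfi1aa* is a repressor that in zebrafish acts in primitive erythroid cells. *gata2a*, *runx1* and *myb* belong to the programme that later yields blood stem cells from endothelium, and *fli1a* and *kdrl* (a VEGF receptor) are endothelial genes. In zebrafish, *runx1* is known as a cohesin-dependent gene.

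Between 32464614 and 115057368 fragments were assigned to genes per library (median 52391330). *rad21a* transcript averaged 784 ± 70.8 counts per 1e6 (CPM) in wild type (SD, n = 4 here and below), 53.9 ± 8.52 in the rad21-/- libraries and 378 ± 31.2 in the heterozygous ones, which is the order of the labels. *stag2b* transcript averaged 188 ± 22.2 CPM in wild type and 165 ± 7.78 in stag2b-/- (log2 change −0.20 ± 0.09, SE, adjusted p = 0.224 by edgeR), so its level does not check that label. Mean correlations of log2 CPM between libraries of a group ran from 0.970 to 0.992, with wild type at the low end. Replicate 4 of rad21-/-, BIO-treated rad21-/- and BIO-treated rad21+/- was the highest of its group in *gata1a* and *gfi1aa*. In untreated rad21-/- it was also the highest in *tal1*, *lmo2*, *fli1a*, *gata2a* and *myb*. In BIO-treated rad21-/- and BIO-treated rad21+/- it was also the highest in *tal1*, *lmo2*, *etv2*, *fli1a*, *kdrl*, *gata2a* and *myb*, but not in *runx1*. The comparisons were therefore repeated without replicate 4 of every group, and each call of the 10 genes that this changed is named with its result. Mutant groups were set against the same wild-type libraries, so these comparisons are not independent of each other. Wild-type (WIK), *rad21* and *stag2b* fish were kept as separate lines. In comparisons across lines, a difference of line or clutch cannot be told apart from an effect of the mutation, for any gene. Each library is a bulk sample, in which fewer cells of a lineage and less RNA per cell cannot be told apart. CPM values are scaled by the trimmed mean of M values (TMM). Log2 changes are given ± SE. Adjusted p-values are Benjamini-Hochberg values of edgeR's quasi-likelihood F-test unless DESeq2 is named. A gene was called when it passed a 5% false discovery rate over all genes tested. Shares of all genes called are from the main edgeR fit. For counts by DESeq2 or at an unadjusted p, the share of all genes is not given.

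In untreated wild-type tailbuds, the genes of early specification were the most abundant of the 10 when compared per kilobase of exon. *lmo2* led with 33.9 ± 3.58 CPM per kb (SD, n = 4), and its lowest library (29.3) was above the highest *tal1* library (28.2). *tal1* (25.1 ± 4.46), *etv2* (22.5 ± 5.39), *myb* (14.8 ± 2.61), *gata1a* (13.7 ± 2.63) and *gfi1aa* (12.5 ± 1.93 CPM per kb) followed, and each of the 5 overlapped the next, except that *gfi1aa* did not overlap *fli1a*. *fli1a* (7.91 ± 1.42) and *gata2a* (5.78 ± 1.09 CPM per kb) also overlapped each other. *kdrl* (2.67 ± 0.73) and *runx1* (1.03 ± 0.42 CPM per kb) were the lowest and did not overlap any neighbour. *runx1* rested on 17 to 253 fragments per library over the 32 libraries, the fewest of the 10 genes. No exon base of the 10 genes was shared with an exon of another annotated gene on either strand.

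**Figure D1:**
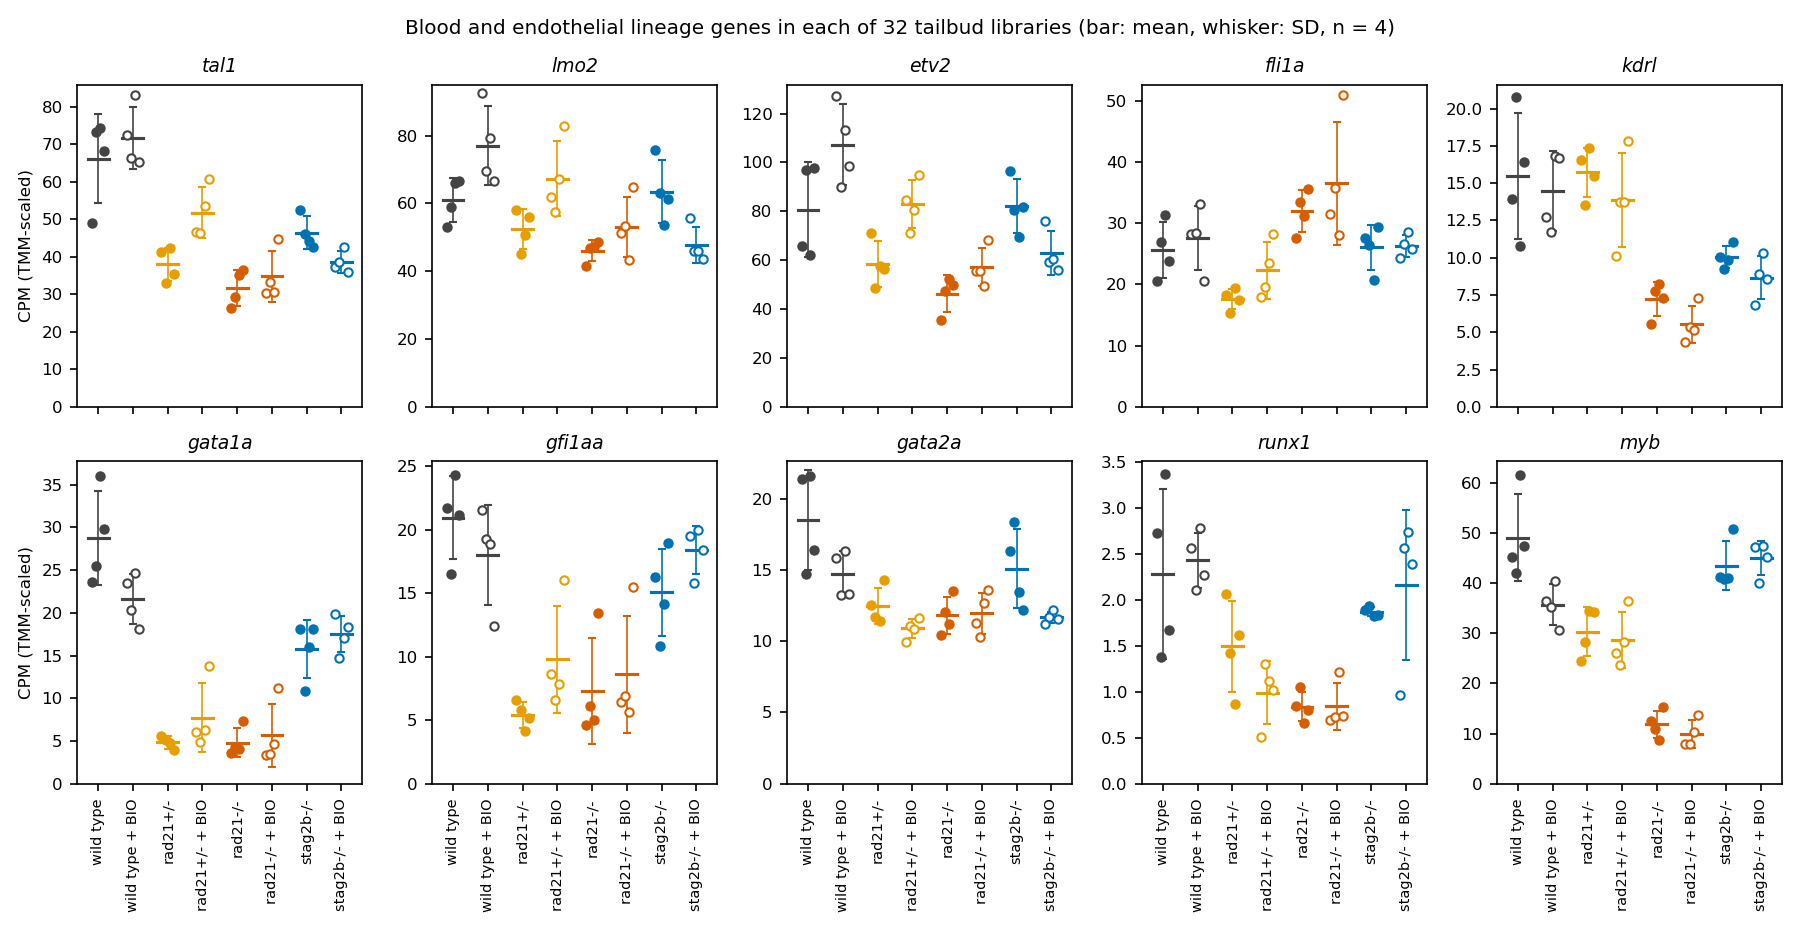
TMM-scaled CPM (y axis, from 0) of the 10 genes in every library, by genotype and treatment (x axis). Filled points are untreated libraries, open points BIO-treated ones, bars are means and whiskers SD (n = 4). *gata1a* in the untreated *rad21* groups lay between 3.64 and 7.28 CPM against 23.6 to 36.05 in wild type, and *kdrl* was low in rad21-/- but not in rad21+/-.

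In rad21-/- tailbuds 9 of the 10 genes were lower than in wild type, from the early regulators to the lineage genes, and *fli1a* was the exception. Over all genes tested, 32.5% were called in this comparison and 16.7% were called lower. The median log2 change of the 10 genes was −1.07, against −0.02 over all genes. None of the 9 genes had a rad21-/- library that overlapped the wild-type range. For this and the later statements on overlap, the share of all genes without overlap is not given. *lmo2*, *gata2a* and *etv2* changed least, and *gata1a*, *myb* and *gfi1aa* most.

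*tal1* (ENSDARG00000019930, GRCz11 chr22:16535575-16545330, plus strand) stood at 49.0, 73.3, 74.4 and 68.3 CPM in the 4 wild-type libraries and at 26.4, 29.2, 35.2 and 36.5 CPM in rad21-/-, 2.07-fold lower (log2 −1.05 ± 0.14). *lmo2* (ENSDARG00000095019, chr18:38288877-38296665, plus strand) stood at 52.9, 59.0, 65.9 and 66.6 CPM in wild type and at 41.4, 47.0, 47.2 and 48.6 CPM in rad21-/-. It was 1.32-fold lower (log2 −0.40 ± 0.12, SE, adjusted p = 0.0134 by edgeR), the smallest of the 9 changes, and its call was the 1 lost without replicate 4 of every group (adjusted p = 0.0913). *etv2* (ENSDARG00000053868, chr16:42007090-42014272, minus strand) stood at 65.6, 96.8, 62.2 and 97.8 CPM in wild type and at 35.5, 47.5, 52.5 and 49.7 CPM in rad21-/-. It was 1.73-fold lower (log2 −0.79 ± 0.17, adjusted p = 0.00152). *etv2* lies 6.39 Mb from *rad21a* on chromosome 16, and an effect of the chromosome that carries the mutation cannot be told apart from one of Rad21.

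*gata1a* (ENSDARG00000013477, chr11:25411914-25418856, minus strand) changed most. It stood at 23.6, 25.5, 36.05 and 29.9 CPM in wild type and at 3.64, 4.26, 4.02 and 7.28 CPM in rad21-/-. The change was 5.98-fold (log2 −2.58 ± 0.22, adjusted p = 1.24e-07), and it was −2.85 when rad21-/- replicate 4, the highest of the 4, was left out. *gfi1aa* (ENSDARG00000020746, chr2:10766744-10785866, plus strand) stood at 21.7, 16.5, 24.3 and 21.2 CPM in wild type and at 4.64, 6.09, 4.98 and 13.4 CPM in rad21-/-. It was 2.87-fold lower (log2 −1.52 ± 0.28, adjusted p = 0.000519), or −1.997 without replicate 4.

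*myb* (ENSDARG00000053666, chr23:31815423-31830043, plus strand), which maintains blood progenitors, stood at 45.2, 42.1, 61.6 and 47.5 CPM in wild type and at 12.5, 10.9, 8.69 and 15.2 CPM in rad21-/-. It was 4.14-fold lower (log2 −2.05 ± 0.17, adjusted p = 6.88e-08). *runx1* (ENSDARG00000087646, chr1:1362932-1402303, minus strand) stood at 2.73, 1.38, 3.36 and 1.67 CPM in wild type and at 0.846, 1.05, 0.664 and 0.796 CPM in rad21-/-. It was 2.71-fold lower (log2 −1.44 ± 0.30, adjusted p = 0.00121), and its wild-type libraries spread more, relative to their mean, than those of any other member. *gata2a* (ENSDARG00000059327, chr11:3847442-3865472, minus strand) stood at 21.4, 14.7, 21.6 and 16.4 CPM in wild type and at 10.5, 12.04, 11.2 and 13.5 CPM in rad21-/- (log2 −0.64 ± 0.15, adjusted p = 0.00369).

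The 2 endothelial members went different ways. *kdrl* (ENSDARG00000105215, chr14:32983769-33044955, minus strand) stood at 13.9, 20.8, 10.8 and 16.4 CPM in wild type and at 5.57, 7.78, 8.21 and 7.30 CPM in rad21-/-. It was 2.13-fold lower (log2 −1.09 ± 0.17, adjusted p = 0.000113). *fli1a* (ENSDARG00000054632, chr18:48423973-48487875, plus strand) stood at 20.6, 26.9, 31.4 and 23.8 CPM in wild type and at 27.6, 33.5, 31.2 and 35.6 CPM in rad21-/-. The groups overlapped and the gene was not called (log2 0.32 ± 0.14, adjusted p = 0.0800).

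**Figure D2:**
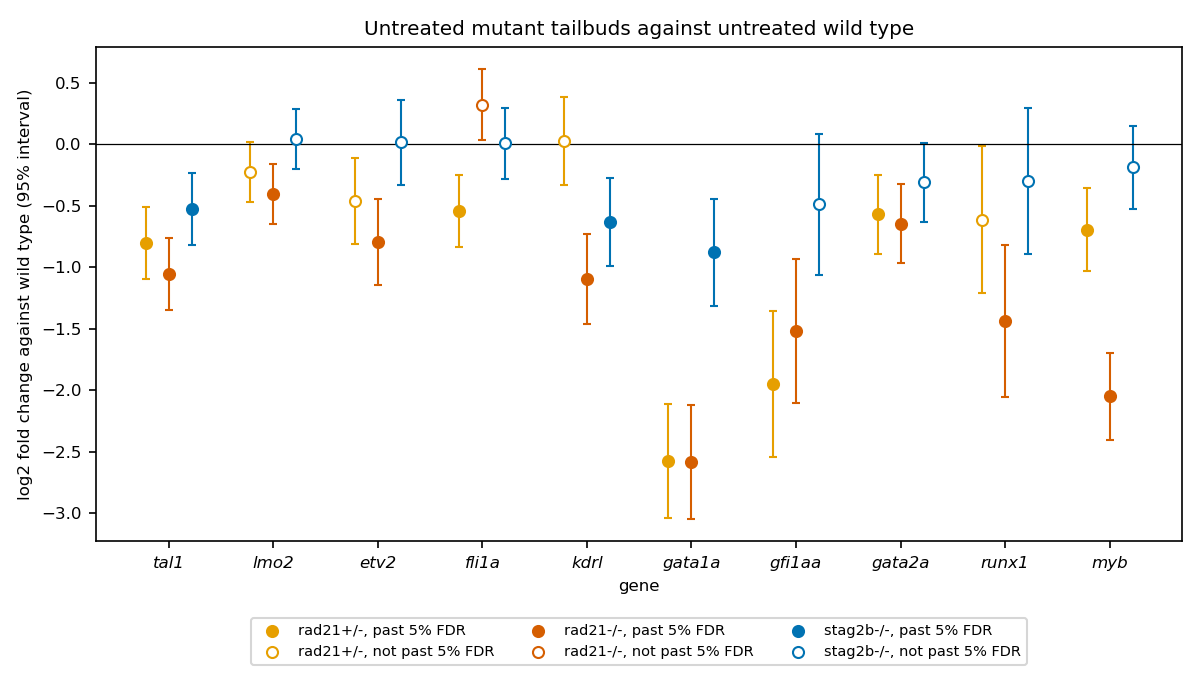
Log2 fold change against untreated wild type (y axis) with its 95% interval, for the 10 genes (x axis) in untreated rad21+/-, rad21-/- and stag2b-/- tailbuds. Filled points passed the 5% false discovery rate. *gata1a* sat at −2.58 in both *rad21* genotypes, *myb* at −0.69 in rad21+/- and −2.05 in rad21-/-, and *kdrl* at 0.03 and −1.09.

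In rad21+/- tailbuds 6 of the 10 genes were lower than in wild type (20.5% of all genes tested were called and 9.75% were called lower). *gata1a* was in the range of rad21-/-. Its 4 heterozygous libraries stood at 5.62, 5.06, 4.71 and 3.88 CPM, 5.96-fold below wild type (log2 −2.58 ± 0.22, adjusted p = 2.13e-07 by edgeR). *gfi1aa* stood at 6.56, 5.78, 4.17 and 5.18 CPM (log2 −1.95 ± 0.28, adjusted p = 9.82e-05). *tal1* stood at 41.2, 32.99, 42.3 and 35.5 CPM, 1.74-fold below wild type (log2 −0.80 ± 0.14, adjusted p = 0.000475). *myb* stood at 24.4, 28.3, 34.4 and 34.2 CPM (log2 −0.69 ± 0.16, adjusted p = 0.00473), *gata2a* at 11.4 to 14.3 CPM (log2 −0.57 ± 0.15, adjusted p = 0.0124) and *fli1a* at 18.2, 15.4, 19.4 and 17.5 CPM (log2 −0.54 ± 0.14, adjusted p = 0.00890). No library of these 6 genes overlapped wild type.

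The other 4 genes were not called in rad21+/-. *kdrl* stood at 16.5, 13.5, 17.4 and 15.5 CPM, within the wild-type range (log2 0.03 ± 0.17, 95% interval −0.33 to 0.38). *etv2* (log2 −0.46 ± 0.17, adjusted p = 0.0565), *runx1* (−0.61 ± 0.29, adjusted p = 0.140) and *lmo2* (−0.22 ± 0.12, adjusted p = 0.196) had lower means with overlapping libraries. DESeq2 called *etv2* too (adjusted p = 0.0416).

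Set directly against each other, the homozygous and heterozygous *rad21* groups differed in some of the 10 genes and not in others. Between the 2 groups 5.32% of all genes were called (1.47% higher and 3.84% lower in rad21-/-), and 3 of the 10 were. *myb* was 2.56-fold lower in rad21-/- than in rad21+/- (log2 −1.36 ± 0.17, adjusted p = 3.11e-05 by edgeR), and its 3 group means were 49.1 ± 8.64 CPM (wild type), 30.35 ± 4.84 (rad21+/-) and 11.8 ± 2.75 (rad21-/-). *kdrl* was 2.17-fold lower (log2 −1.12 ± 0.17, adjusted p = 0.000386). *fli1a* was 1.82-fold higher in rad21-/- (log2 0.86 ± 0.14, adjusted p = 0.000540), with wild type between the 2 *rad21* groups. No library of these 3 genes overlapped between the groups. *gata1a* did not separate them (log2 −0.01 ± 0.21, 95% interval −0.46 to 0.45), nor did *gfi1aa* (0.43 ± 0.28, interval −0.16 to 1.01) or *tal1* (−0.25 ± 0.14, interval −0.55 to 0.04). *runx1* averaged 1.49 ± 0.50 CPM in rad21+/- and 0.838 ± 0.16 in rad21-/-, and the difference was not called (log2 −0.82 ± 0.30, adjusted p = 0.137).

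Most genes of the erythroid list were lower in rad21-/-, rad21+/- or both. Of 23 erythroid genes tested, 13 were called lower in rad21-/- and all 23 had a log2 change below 0 (median −1.13). In rad21+/- 19 were lower and 1, *rhag*, higher (1.12 ± 0.36, named after its value was seen), with a median of −1.46. The medians over all genes were −0.02 and −0.01, and 16.7% and 9.75% of all genes were called lower. In rad21+/- 10.8% of all genes were called higher. *gfi1b*, a repressor needed for red cell formation, averaged 6.38 CPM in wild type. Its mean was 2.32 CPM with 1 mutant copy (log2 −1.46 ± 0.21) and 0.499 CPM with both (log2 −3.66 ± 0.235, adjusted p = 3.43e-09). *blf*, a zinc-finger gene expressed in blood, had a wild-type mean of 49.1 CPM, against 8.20 for rad21+/- (−2.58 ± 0.18) and 6.74 for rad21-/- (−2.86 ± 0.18). The same means of *cahz*, a red cell carbonic anhydrase, were 18.3, 4.64 and 2.22 CPM, and the globin gene *hbae5* was lower in rad21+/- (−2.43 ± 0.48). *epb41b*, a red cell membrane skeleton gene, had means of 12.1 CPM for wild type, 2.15 for rad21+/- (−2.50 ± 0.28) and 4.41 for rad21-/-. The last was 1.04 ± 0.28 higher than rad21+/- on the log2 scale (adjusted p = 0.0329). Summed over 24 erythroid genes, wild-type libraries held 533 to 690 CPM, rad21+/- libraries 189 to 281 and rad21-/- libraries 239 to 334.

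Of 25 endothelial genes tested in rad21-/-, 4 were higher and 5 lower (median log2 0.16), where 15.8% of all genes were called higher and 16.7% lower. *esama*, an endothelial adhesion gene, fell to 1.94 CPM from 6.15 in wild type (log2 −1.66 ± 0.19, adjusted p = 3.84e-06), whereas *mrc1a* (1.23 ± 0.435, adjusted p = 0.0389) and *rasip1* (1.19 ± 0.35, adjusted p = 0.0155), a venous and lymphatic receptor gene and a gene of vessel lumen formation, rose. In rad21+/- 4 of the 25 were lower (median −0.17), where 9.75% of all genes were called lower. Among them were *myct1a* (−1.08 ± 0.21), *egfl7* (−0.63 ± 0.21) and the VEGF receptor gene *flt4* (−0.46 ± 0.115).

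**Figure D3:**
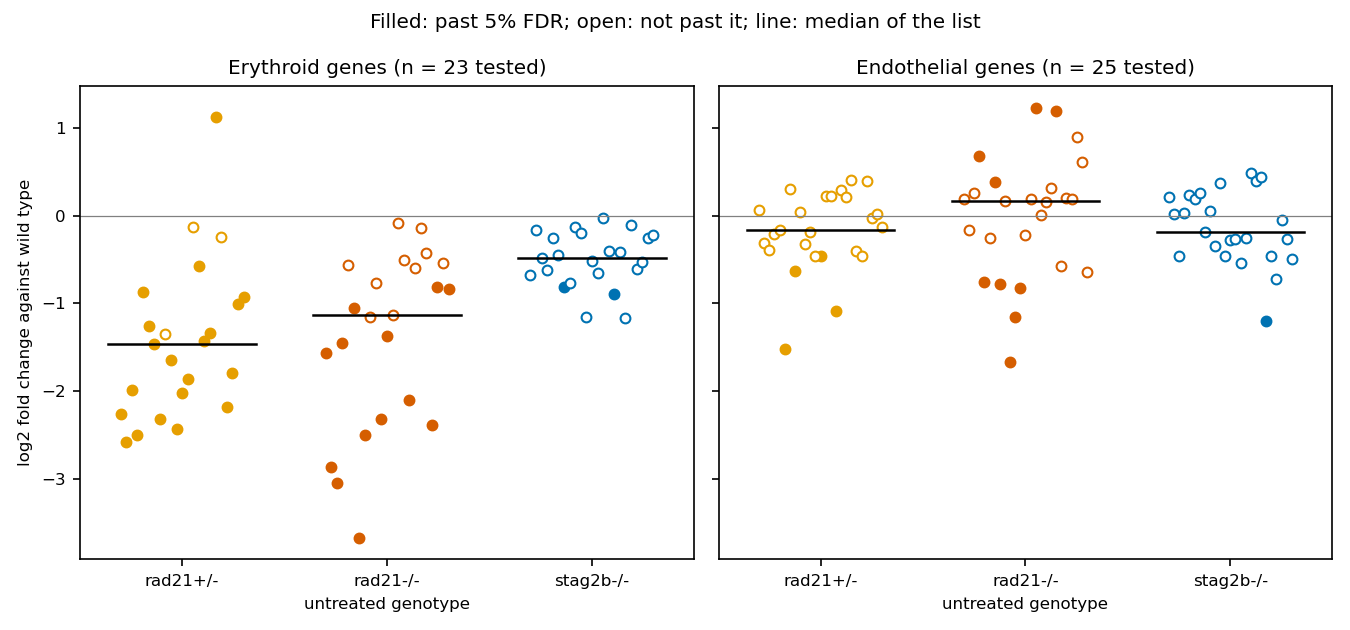
Log2 fold change against untreated wild type (y axis) of each tested gene of the erythroid list (left, 23 genes) and the endothelial list (right, 25 genes) in the untreated mutants (x axis). Filled points passed the 5% false discovery rate and black lines are list medians. The erythroid medians were −1.46, −1.13 and −0.48 in rad21+/-, rad21-/- and stag2b-/-, and the endothelial medians −0.17, 0.16 and −0.18.

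Among the early regulators, *npas4l* stood at 12.9, 17.5, 17.3 and 17.1 CPM in wild type and at 5.81, 9.67, 11.8 and 11.1 CPM in rad21-/- (log2 −0.75 ± 0.20, adjusted p = 0.00751). In rad21+/- it averaged 17.6 ± 3.26 CPM, and the 2 *rad21* groups differed (log2 −0.87 ± 0.20, adjusted p = 0.0107). This gene was singled out after its values were seen. Of the 9 early regulators tested, 4 were lower and 1 higher in rad21-/-, where 16.7% of all genes were called lower and 15.8% higher. *hhex*, a homeobox gene of blood and endothelial precursors, averaged 8.33 CPM in wild type and 4.70 in rad21-/- (−0.82 ± 0.22, adjusted p = 0.00810), *drl*, a zinc-finger gene of lateral mesoderm, 11.2 and 6.41 CPM (−0.80 ± 0.22, adjusted p = 0.0104), and *erg*, an ETS gene close to *fli1a* in sequence, 1.67 and 2.82 CPM (0.76 ± 0.22, adjusted p = 0.0133). *drl* (−1.36 ± 0.225) and *hhex* (−0.77 ± 0.22) were also the 2 early regulators called lower in rad21+/-, where 9.75% of all genes were called lower.

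Partner, progenitor and signalling genes were mixed. For their counts in rad21-/-, the shares over all genes tested were 15.8% called higher and 16.7% called lower. Of 15 cofactors of these transcription factors, 4 were higher and 3 lower in rad21-/-, with *ssbp3a*, a subunit of Ldb1 complexes, at 30.3 CPM in wild type and 12.6 in rad21-/- (−1.26 ± 0.11, adjusted p = 2.18e-07), and *zfpm1*, which encodes the GATA1 cofactor Fog1, at 4.68 and 2.68 CPM (−0.80 ± 0.20, adjusted p = 0.00487). The co-repressor gene *cbfa2t3* was higher (0.78 ± 0.23, adjusted p = 0.0134). In rad21+/- its relative *cbfa2t2* was higher (0.68 ± 0.14) and *zfpm1* lower (−0.67 ± 0.20). The rise of *cbfa2t2* was not limited to heterozygotes. Its rad21-/- libraries (25.5 to 34.27 CPM, mean 31.4) also lay above every wild-type library (15.97 to 21.3, mean 18.7). The rad21+/- mean was 29.9 CPM. This rad21-/- level was singled out after its values were seen. Of 6 progenitor genes tested, 3 were lower and 1 higher: *ikzf1*, a lymphoid and progenitor factor, had means of 6.06 CPM for wild type, 1.79 for rad21+/- (−1.76 ± 0.27) and 1.92 for rad21-/- (−1.66 ± 0.27), and *cxcr4a*, a chemokine receptor, of 107, 80.5 and 47.2 CPM (−0.41 ± 0.13 and −1.18 ± 0.13), while *meis1b* was higher in rad21-/- (0.44 ± 0.09). *runx3*, a paralogue of *runx1*, averaged 2.92 CPM in wild type and 1.03 in rad21-/- (−1.49 ± 0.28, adjusted p = 0.000573), and *runx2b*, the other paralogue tested, was not called. Of 11 VEGF and Notch genes 3 were lower and 3 higher, with *hey2*, an arterial Notch target, at 24.5 and 7.42 CPM (−1.72 ± 0.12, adjusted p = 9.76e-09), *nrp1b* at 5.93 and 3.21 CPM (−0.88 ± 0.23, adjusted p = 0.00788) and *vegfc*, a ligand of lymphatic and venous growth, at 1.65 and 3.42 CPM (1.05 ± 0.21, adjusted p = 0.00113). In rad21+/- *hey2* was lower (−0.73 ± 0.115), and the receptor genes *nrp1a* (0.58 ± 0.12) and *notch3* (0.50 ± 0.14) were higher.

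In stag2b-/- tailbuds, 3 of the 10 genes were lower and none was higher by edgeR or by DESeq2 (6.29% of all genes were called, 3.88% lower and 2.41% higher, and no member was higher at an unadjusted p under 0.05). *gata1a* stood at 18.1, 10.9, 15.99 and 18.1 CPM, below every wild-type library (1.84-fold, log2 −0.88 ± 0.21, adjusted p = 0.0158). *tal1* stood at 52.6, 46.2, 44.2 and 42.7 CPM (log2 −0.52 ± 0.14, adjusted p = 0.0298), and 1 of its libraries was above wild-type replicate 1. *kdrl* stood at 10.05, 9.25, 9.84 and 11.1 CPM (log2 −0.63 ± 0.17, adjusted p = 0.0325), with 1 library above wild-type replicate 3. *kdrl* lies 4.46 Mb from *stag2b* on chromosome 14, so an effect of the mutant chromosome cannot be told apart from one of Stag2b.

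Without a single library the adjusted p of *tal1* ran up to 0.0904, that of *kdrl* up to 0.0981 and that of *gata1a* up to 0.0566. The call of *tal1* was lost without replicate 2, 3 or 4 of either group, and that of *kdrl* without wild-type replicate 2 or 4 or any stag2b-/- library (6 of 8 fits each). The call of *gata1a* was lost in 2 fits, without stag2b-/- replicate 2 or wild-type replicate 3, and when the fit held the treated libraries too (32 in all, adjusted p = 0.0595). Without replicate 4 of every group *gata1a* alone was called, with adjusted p = 0.227 for *tal1* and 0.197 for *kdrl*. The other 7 members lay between −0.49 (*gfi1aa*) and 0.04 (*lmo2*). *etv2* (log2 0.02, 95% interval −0.33 to 0.37), *lmo2* (0.04, interval −0.20 to 0.29) and *fli1a* (0.01, interval −0.28 to 0.30) were close to wild type. *myb* stood at 41.2, 40.9, 41.1 and 50.8 CPM (log2 −0.19 ± 0.16, adjusted p = 0.569).

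Of 23 erythroid genes tested in stag2b-/-, 2 were called lower, where 3.88% of all genes were, and all 23 had a log2 change below 0 (median −0.48 against −0.01 over all genes). The 2 were *klf17*, an erythroid factor, which fell from 76.0 CPM to 41.2 (−0.89 ± 0.14, adjusted p = 0.000691 by edgeR), and *gfi1b*, from 6.38 to 3.65 CPM (−0.82 ± 0.20, adjusted p = 0.0208). Of the endothelial list only *s1pr1*, a sphingosine phosphate receptor, was called (−1.20 ± 0.31, adjusted p = 0.0247, 25 tested). *ssbp3a* was again lower (−0.64 ± 0.11) and *ssbp2*, its paralogue, higher (0.72 ± 0.16), and the growth factor gene *vegfaa* was lower (−0.68 ± 0.18, adjusted p = 0.0308).

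Compared directly, 7 of the 10 genes were higher in stag2b-/- than in rad21-/- (27.6% of all genes were called and 13.4% were called higher). The differences were 3.64-fold for *myb* (log2 1.86 ± 0.17, adjusted p = 2.28e-07 by edgeR), 3.26-fold for *gata1a* (1.70 ± 0.22, adjusted p = 1.47e-05), 2.20-fold for *runx1* (1.14 ± 0.30, adjusted p = 0.00784) and 2.05-fold for *gfi1aa* (1.03 ± 0.28, adjusted p = 0.00990). *etv2* (0.81 ± 0.17), *tal1* (0.53 ± 0.14) and *lmo2* (0.45 ± 0.12) were higher as well. Of the 7, only *gfi1aa* had overlapping libraries, through rad21-/- replicate 4. The call of *runx1* was lost without replicate 4 of every group (log2 1.11, adjusted p = 0.0553). *kdrl* was not called in the main edgeR fit (0.46 ± 0.17, adjusted p = 0.0545) and was called by DESeq2 (adjusted p = 0.0389). By edgeR it was called with RLE (relative log expression) normalization (adjusted p = 0.0499). It was also called by edgeR with the 32 libraries in the fit (0.0410) and with only the libraries compared (0.0375). *fli1a* (−0.31 ± 0.14) and *gata2a* (0.34 ± 0.15) were not called by either, and *gata2a* was called when the fit held the 32 libraries (adjusted p = 0.0337).

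After BIO, none of the 10 genes was called by edgeR in wild type, against 17.3% of all genes (7.58% higher and 9.76% lower). At an unadjusted p under 0.05 there were 4: *lmo2* (log2 0.33 ± 0.13, adjusted p = 0.0689), *etv2* (0.41 ± 0.15, adjusted p = 0.0604), *gata2a* (−0.33 ± 0.13, adjusted p = 0.0705) and *myb* (−0.46 ± 0.17, adjusted p = 0.0501). DESeq2 called 1 member, *myb* (adjusted p = 0.0362), whose treated libraries (36.4, 35.2, 40.5 and 30.6 CPM) were all below the untreated ones. Without replicate 4 of every group *lmo2* was called (log2 0.44, adjusted p = 0.0418). In rad21-/- none was called by either tool, against 7.16% of all genes (2.1% higher and 5.06% lower), and only *kdrl* had an unadjusted p under 0.05 (log2 −0.38 ± 0.18). *gata1a* in BIO-treated rad21-/- tailbuds stood at 3.40, 3.49, 4.64 and 11.2 CPM, and *myb* at 7.83, 7.93, 10.4 and 13.8 CPM.

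In rad21+/- tailbuds none was called after BIO by edgeR (3.62% of all genes, 1.31% higher and 2.31% lower), but 6 of 10 had an unadjusted p under 0.05 and DESeq2 called 3. *tal1* stood at 46.6, 46.4, 53.5 and 60.7 CPM with BIO, above all 4 untreated rad21+/- libraries (log2 0.45 ± 0.13, adjusted p = 0.0534). *etv2* stood at 84.7, 71.2, 80.6 and 94.9 CPM (0.50 ± 0.15, adjusted p = 0.0577). With the replicate number as a block, both passed (2 of 10 called, *tal1* adjusted p = 0.0278 and *etv2* adjusted p = 0.0408 by edgeR). The block also raised the count over all genes, from 775 to 1836 of 21385. The third DESeq2 call was *gfi1aa* (0.84 ± 0.32, adjusted p = 0.133 by edgeR and 0.0459 by DESeq2). Its treated libraries stood at 8.64, 6.61, 7.87 and 16 CPM, so its mean leaned on replicate 4. That library was also the highest treated one for *tal1* and *etv2*.

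In stag2b-/- tailbuds 1 member was called after BIO, against 7.99% of all genes (4.72% lower). *lmo2* stood at 75.8, 63.2, 53.5 and 61.2 CPM untreated and at 55.6, 45.9, 45.9 and 43.7 CPM with BIO (1.33-fold lower, log2 −0.41 ± 0.13, adjusted p = 0.0439 by edgeR). The groups overlapped, and the call was lost without stag2b-/- replicate 1, 2 or 4 or treated stag2b-/- replicate 2, 3 or 4 (adjusted p up to 0.176), and without replicate 4 of every group (0.139). *etv2* averaged 82.1 ± 11.2 CPM untreated and 62.9 ± 8.99 with BIO (SD, n = 4) and did not pass the test (−0.38 ± 0.15, adjusted p = 0.121). *tal1*, at 37.4, 38.6, 42.6 and 35.9 CPM with BIO, lay below the 4 untreated libraries and was not called (−0.26 ± 0.13, adjusted p = 0.239).

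The response of *lmo2* to BIO differed between stag2b-/- and wild type. Wild-type means were 61.1 ± 6.46 CPM untreated and 77.0 ± 11.6 with BIO, and stag2b-/- means 63.4 ± 9.23 and 47.8 ± 5.34 (SD, n = 4 each). The interaction was −0.74 ± 0.18 on the log2 scale (95% interval −1.11 to −0.37, adjusted p = 0.0310 by edgeR), and *lmo2* was the only 1 of the 10 genes called, where 1.34% of all genes were (0.631% lower). *etv2* had means of 80.6 ± 19.4 and 107 ± 16.5 CPM in wild type, and its interaction of −0.80 ± 0.22 was just outside the threshold (adjusted p = 0.0562, and 0.0321 by DESeq2). The adjusted p of *lmo2* ran from 0.0204 to 0.0933 when single libraries were left out, and the call was lost in 7 of 16 such fits (replicate 1 of wild type and of stag2b-/-, replicates 1 and 3 of treated wild type, and replicates 2, 3 and 4 of treated stag2b-/-). It was also lost without replicate 4 of every group (log2 −0.83, adjusted p = 0.0541 by edgeR). With only the libraries compared in the fit it was lost too (log2 −0.73, adjusted p = 0.0831 by edgeR). The interaction of *npas4l* was called too, and that of *tal1* was not (−0.38 ± 0.19, adjusted p = 0.385 by edgeR). Links between these responses were not tested. *npas4l* stood at 26.3, 22.3, 23.7 and 17.6 CPM in BIO-treated wild type and at 9.39, 11.9, 11.7 and 11.03 CPM in BIO-treated stag2b-/-, with untreated means of 16.2 ± 2.19 and 16.9 ± 3.03 CPM (interaction −1.09 ± 0.23, adjusted p = 0.0125). *npas4l* was picked out after its values were seen.

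**Figure D4:**
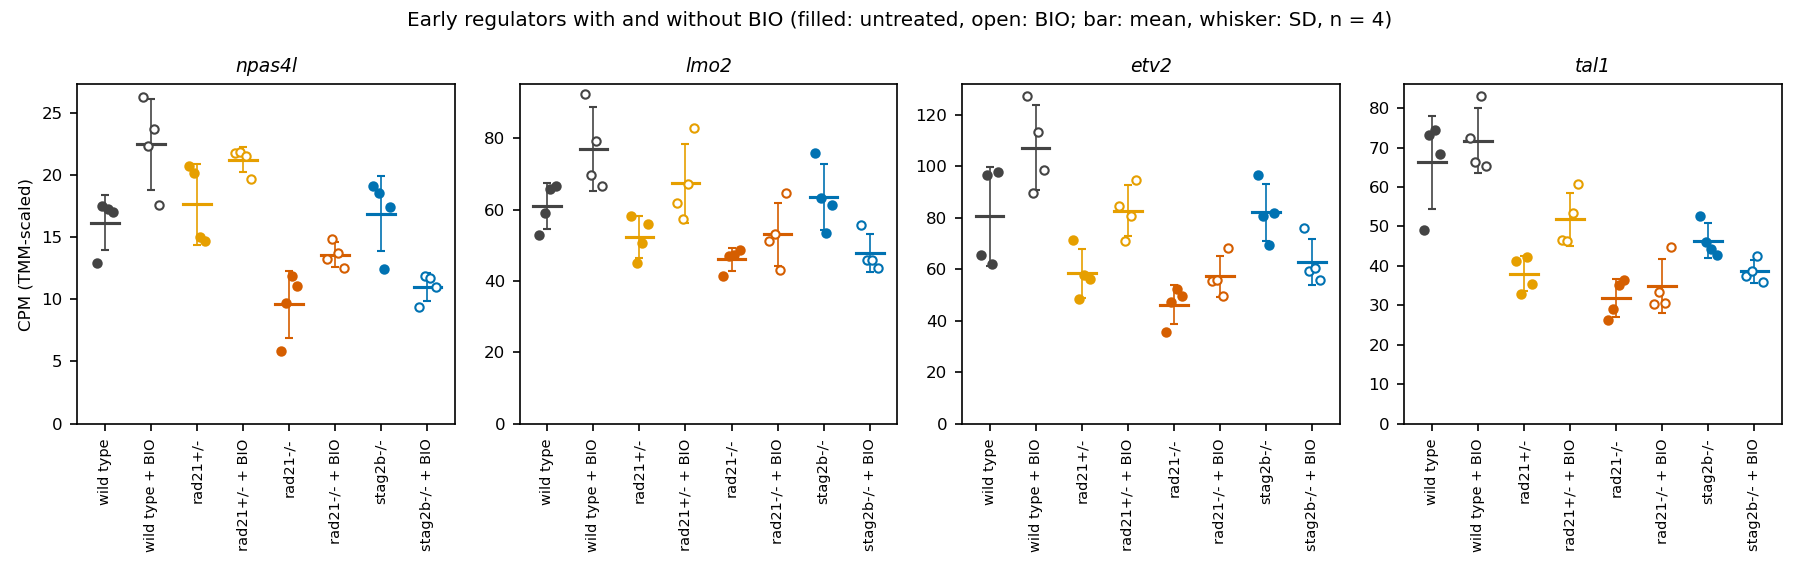
TMM-scaled CPM (y axis, from 0) of *npas4l*, *lmo2*, *etv2* and *tal1* in every library by genotype and treatment (x axis). Filled points are untreated and open points BIO-treated libraries, bars are means and whiskers SD (n = 4). With BIO, the mean of *lmo2* was 77.0 CPM in wild type and 47.8 in stag2b-/-, against 61.1 and 63.4 untreated.

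None of the 10 genes had a called interaction with rad21-/- (0.874% of all genes called, 0.393% higher and 0.482% lower, no member at an unadjusted p under 0.05, 0 by DESeq2) or with rad21+/- (0.912%, 0.426% higher and 0.486% lower, 2 members at an unadjusted p under 0.05, 0 by DESeq2). The 2 were *gata1a* (1.08 ± 0.43, adjusted p = 0.273) and *gfi1aa* (1.06 ± 0.44, adjusted p = 0.297), which were 0.64 and 0.70 without BIO-treated rad21+/- replicate 4.

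The BIO-treated groups are separate libraries, in which the same genotypes were compared. Against treated wild type, 8 of the 10 genes were lower and 1 higher in treated rad21-/- (35.6% of all genes called, 18.8% lower and 16.8% higher). *gata1a* was 3.85-fold lower (log2 −1.95 ± 0.32, adjusted p = 1.85e-05 by edgeR), *myb* 3.59-fold (−1.84 ± 0.17, adjusted p = 6.98e-10), *runx1* 2.87-fold (−1.52 ± 0.30, adjusted p = 0.000197) and *kdrl* 2.61-fold (−1.39 ± 0.18, adjusted p = 4.96e-07). *gfi1aa* (−1.07 ± 0.31), *tal1* (−1.05 ± 0.13), *etv2* (−0.91 ± 0.15) and *lmo2* (−0.54 ± 0.13) were lower too, and *gata2a* was not called (−0.30 ± 0.13, adjusted p = 0.0695). *fli1a* was called higher (0.41 ± 0.16, adjusted p = 0.0476), but the value was 0.23 (adjusted p = 0.268) without replicate 4 of that group, whose 50.9 CPM was above every other library, and the call was also lost without treated wild-type replicate 1, 2 or 4 or treated rad21-/- replicate 2. Without replicate 4 of every group *fli1a* was at 0.09 (adjusted p = 0.720) and *gata2a* was called lower (−0.41, adjusted p = 0.0378).

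In BIO-treated rad21+/- 5 genes were lower than in treated wild type (22.9% of all genes called, 11.2% lower). They were *gata1a* (log2 −1.50 ± 0.31, adjusted p = 0.000673), *runx1* (−1.26 ± 0.30, adjusted p = 0.00244), *gfi1aa* (−0.89 ± 0.31, adjusted p = 0.0398), *tal1* (−0.47 ± 0.13, adjusted p = 0.00930) and *gata2a* (−0.43 ± 0.13, adjusted p = 0.0144). The call of *gfi1aa* was lost without replicate 1, 2 or 3 of either group (adjusted p up to 0.134), and that of *gata2a* without treated wild-type replicate 1 or 3 or treated rad21+/- replicate 1 (up to 0.0532). Without replicate 4 of every group *fli1a* (−0.56, adjusted p = 0.0139) and *myb* (−0.52, adjusted p = 0.0244) were called lower too. *runx1* stood at 2.56, 2.11, 2.78 and 2.27 CPM in treated wild type, at 0.510, 1.31, 1.12 and 1.02 in treated rad21+/- and at 0.688, 0.721, 1.22 and 0.737 in treated rad21-/-. Both treated *rad21* groups were thus below every treated wild-type library in *runx1*. Treated rad21-/- and rad21+/- differed in 5 of the 10 genes (7.37% of all genes called, 2.39% higher and 4.98% lower): *myb* (−1.52 ± 0.17), *kdrl* (−1.32 ± 0.18), *tal1* (−0.57 ± 0.13) and *etv2* (−0.53 ± 0.15) were lower and *fli1a* higher (0.71 ± 0.16) in rad21-/-. Of these, *etv2* lost the call without replicate 1 or 3 of either group, treated rad21-/- replicate 2 or treated rad21+/- replicate 4 (adjusted p up to 0.138), and without replicate 4 of every group (0.0972).

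In BIO-treated stag2b-/- 4 genes were lower than in treated wild type (13.6% of all genes called, 7.04% lower). Of the 4, *tal1* and *kdrl* were also among the untreated calls. *tal1* was 1.86-fold lower (log2 −0.89 ± 0.13, adjusted p = 2.03e-05 by edgeR), *etv2* 1.70-fold (−0.77 ± 0.15, adjusted p = 0.000790), *kdrl* 1.66-fold (−0.73 ± 0.18, adjusted p = 0.00586) and *lmo2* 1.61-fold (−0.69 ± 0.13, adjusted p = 0.000339). None of the 4 overlapped between the groups, and each kept its call whichever single library was left out. Without replicate 4 of every group *kdrl* lost its call (log2 −0.65, adjusted p = 0.0615). *gata1a* was at 19.8, 14.8, 17.1 and 18.4 CPM against 23.4, 20.3, 24.6 and 18.1 in treated wild type and was not called (−0.30 ± 0.30, adjusted p = 0.574). Of the 9 early regulators tested 4 were lower in this comparison, namely *npas4l* (−1.03 ± 0.17, adjusted p = 5.14e-05), *tmem88a* (−0.77 ± 0.15), *sox7* (−0.71 ± 0.17) and *fli1b* (−0.47 ± 0.16). Of 23 erythroid genes 1 was lower, where 7.04% of all genes were.

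*gata1a* and *gfi1aa* moved together from library to library. Their log2 CPM values had a Pearson correlation of 0.947 over the 32 libraries, the highest that *gata1a* had with any of the 13832 genes ranked, and *ikzf1* (0.929) and *klf17* (0.923) came next. The libraries share genotype groups and this is a description only. Much of the spread inside the *rad21* groups came from replicate 4. In BIO-treated rad21-/- it had 11.2 CPM of *gata1a* and 15.5 of *gfi1aa* against at most 4.64 and 6.92 in the other 3 libraries, and in BIO-treated rad21+/- it had 13.8 and 16 CPM against at most 6.25 and 8.64. The summed erythroid list was 403 and 528.6 CPM in these 2 libraries, against 192 to 223 and 237 to 271 in the others of their groups. Replicate 4 of untreated rad21+/- was not high in *gata1a* (3.88 CPM) or *gfi1aa* (5.18 CPM). Its summed erythroid list was still the highest of that group (280.6 CPM, others 189.1 to 226.4). The same held for replicate 4 of untreated rad21-/- (333.9 CPM, others 238.9 to 270.5).

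**Figure D5:**
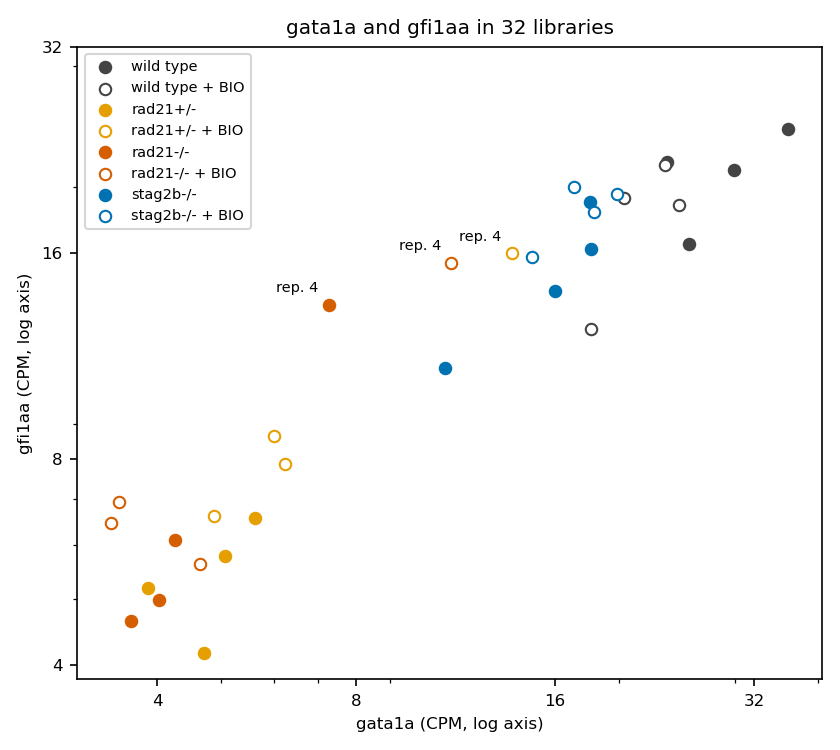
*gfi1aa* (y axis) against *gata1a* (x axis), both in TMM-scaled CPM on log axes, in the 32 libraries. Filled points are untreated and open points BIO-treated libraries. Replicate 4 of rad21-/- (7.28 and 13.4 CPM of *gata1a* and *gfi1aa*), of BIO-treated rad21-/- (11.2 and 15.5) and of BIO-treated rad21+/- (13.8 and 16) lies above the other libraries of its group.

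Correlations of other members are likewise a description only, since the libraries share genotype groups. Similar genes were ranked for *tal1*, *kdrl* and *runx1* besides *gata1a*. The 3 specification genes *tal1*, *lmo2* and *etv2* correlated with each other at 0.822 to 0.894 over the 32 libraries. *fli1a* stood apart, with correlations between −0.50 (*kdrl*) and 0.28 (*gfi1aa*). The genes most like *tal1* were *pdlim4* (0.874), *CRABP2* (0.866) and *etv2* (0.861), those most like *kdrl* were *ITGA4* (0.942), *CBLB* (0.920) and *FGF10* (0.919), and those most like *runx1* were *kdm7aa* (0.844), *cebpa* (0.820) and *msto1* (0.819).

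Several of the 10 genes are also expressed outside blood and vessels in zebrafish, *runx1* in Rohon-Beard sensory neurons and *tal1* and *gata2a* in spinal interneurons. The summed level of 9 Rohon-Beard markers ranged over 223 to 301 CPM for wild type, 160 to 197 for rad21-/-, 249 to 291 for rad21+/- and 265 to 301 for stag2b-/-. Most of this sum was *prdm1a* (means of 171 CPM in wild type and 115.4 in rad21-/-). The means of *isl1* (15.02 and 17.85 CPM), *isl2b* (4.41 and 4.69) and *fgf13a* (4.61 and 5.68) were not lower in rad21-/-. In that genotype 15.8% of all genes were called higher and 16.7% lower. Of 8 tested in rad21-/-, *isl2a* (log2 −0.81) and *prdm1a* (−0.56) were lower and *drgx* (0.82) higher, and *drgx* was also higher in rad21+/- (0.89, with *isl1*, 0.61) and in stag2b-/- (0.98). The 9 spinal interneuron markers summed to 43.3 to 69.9 CPM in wild type and 35.2 to 45.9 in rad21-/-, and *sox1b* was the only 1 of 6 tested that was called (−3.44), while *gata3* was not (−0.24, adjusted p = 0.366). These sums were mostly *gata3* (means of 42.9 and 36.2 CPM). *tal2*, *pkd2l1*, *pkd1l2a*, *gad1b*, *gad2* and *slc32a1* each averaged 0.369 CPM or less in both groups. In rad21+/- *sox1b* (−0.85) and *sox1a* (−1.11) were lower. Myeloid markers were low (9 genes summing to 26.2 to 39.0 CPM in wild type and 31.2 to 43.1 in rad21-/-), with *cebpa* lower in rad21-/- (−1.93), rad21+/- (−1.53) and stag2b-/- (−0.71), *spi1b* lower in rad21+/- (−1.70) and *lcp1* higher in rad21-/- (1.79) and rad21+/- (2.08) and lower in stag2b-/- (−1.15). Most of the wild-type and rad21-/- sums was *cebpa* (means of 17.97 and 4.695 CPM), *lcp1* (8.71 and 29.86) and *spi1b* (3.20 and 2.45).

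Markers of other tissues moved as well. The shares over all genes tested were 15.8% called higher and 16.7% called lower in rad21-/-. They were 10.8% higher and 9.75% lower in rad21+/-, and 2.41% higher in stag2b-/-. Neural crest markers (6 genes) summed to 268 to 338 CPM in wild type, 386 to 415 in rad21-/- and 365 to 471 in stag2b-/-, with 5 of 6 called higher and 1 lower in rad21-/- and 3 higher in stag2b-/- (*crestin* 1.06 and 1.71, *sox10* 0.82 and 0.98, *snai1b* 0.70 and 0.54, respectively), and *crestin* alone in rad21+/- (0.78). Of 7 tailbud progenitor markers tested in rad21-/- 4 were lower and 1 higher (*msgn1* −0.92, *tbx16* −0.69, *sox2* 0.53), and the sum of 8 was 1090 to 1413 CPM against 1711 to 2303 in wild type. Epidermal markers (6 genes) summed to 23940 to 51500 CPM in wild type and 30610 to 41210 in rad21-/-, with *tp63* higher in rad21-/- (0.34), rad21+/- (0.32) and stag2b-/- (0.49) and *krt5* lower in rad21+/- (−0.67). Head and heart markers (4 genes) summed to 1.76 to 7.80 CPM over the untreated libraries, with *otx2b* lower in rad21-/- (−1.63). Most of this sum was *otx2b* (means of 5.24 CPM in wild type and 1.69 in rad21-/-). The others were near the floor, and *foxg1a* (0.112 and 0.266 CPM), *myl7* (0.0437 and 0.133) and *egr2b* (0.0757 and 0.674) had higher means in rad21-/-. The last mean leaned on replicate 1 (2.147 CPM). The part of these tissues in the results on the 10 genes was not tested.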

How the data were processed

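Total RNA from 32 pools of 80 tailbuds was sequenced as stranded mRNA libraries. Per the labels and the methods of the study, the authors trimmed reads with Cutadapt, aligned them to GRCz11 (Ensembl 98) with HISAT2 and SAMtools, and deposited a table of raw counts, in which featureCounts 1.5.3 assigned fragments to exons by gene and strand, without multi-mapping fragments.

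The counts were used as deposited. Gene IDs were paired with names from the supplied gene name table, and for the 10 genes the chromosome matched RefSeq. *etv2* is listed there as *etsrp* and *fli1a* as FLI1 (RefSeq synonyms), and *gata2a* as GATA2 (paired with its ID in a supplementary table of the study). Tests were edgeR 4.0.16 (R 4.3.3) quasi-likelihood F-tests with TMM normalization, filterByExpr at its default minimum count of 10, robust dispersions and Benjamini-Hochberg adjustment over all genes tested. Untreated comparisons came from 1 fit of 16 libraries (20677 genes), all others from 1 fit of 32 libraries (21385 genes). SE is the log2 fold change divided by the square root of F, and intervals cover 95%. Fits were tested on simulated counts. Levels are CPM on TMM-scaled library sizes, correlations used log2 CPM with a prior count of 2, and per-kilobase values used the exon length in the deposited table. *runx1* had the fewest fragments of the 10 genes, so counting error was largest for it relative to its level. For the other genes, counting error was not small beside the spread between pools in every group. In BIO-treated stag2b-/-, *gata2a* rested on 350 to 879 fragments per library and averaged 11.67 CPM with an SD of 0.404. Nothing states that the 4 pools of a group came from separate crosses, so p-values measure the spread between these pools.

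The 10 genes and the 14 other gene lists were chosen with earlier results of these data known. In each of the 16 comparisons the members that were called are named, and the others only in part. From the other lists counts are given for some of the comparisons. Named from them are the 3 genes with the largest change among those called in an untreated mutant whose average log2 CPM was 0 or above. Some further genes are named with their values, and those singled out after their values were seen are marked in the text. For *tal1*, *gata1a*, *kdrl* and *runx1* the 3 most similar genes among those whose average log2 CPM was 1 or above are named.

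Alternatives were DESeq2 1.42.0, relative log expression (RLE) normalization, no filter, the replicate number as a block, fewer or more libraries in the fit, and each library left out. Leaving out replicate 4 of every group was added after seeing the data. Same-numbered libraries deviated together, with all 4 correlations above 0.1, in BIO-treated against untreated rad21+/- (0.180 to 0.449), BIO-treated stag2b-/- against BIO-treated wild type (0.313 to 0.494) and BIO-treated rad21-/- against BIO-treated rad21+/- (0.261 to 0.533). Sequences and promoters of the genes were not analysed here.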

Additional observations from a re-analysis of the deposited data

Results flagged for a closer look

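Among the 80 sets of 4 libraries (10 genes in 8 groups), 7 held a library far from the other 3, measured as its gap to the nearest library over the whole range (Dixon's test at the 95% level, which chance passes in about 5% of sets). *gata1a* was high in replicate 4 of rad21-/- (7.28 CPM, others 3.64 to 4.26), of BIO-treated rad21-/- (11.15 CPM, others 3.40 to 4.64) and of BIO-treated rad21+/- (13.75 CPM, others 4.88 to 6.25). *gfi1aa* was high in replicate 4 of rad21-/- (13.44 CPM, others 4.64 to 6.09) and of BIO-treated rad21-/- (15.48 CPM, others 5.61 to 6.92). *myb* was high in replicate 4 of stag2b-/- (50.81 CPM, others 40.9 to 41.2). *runx1* was high in replicate 3 of BIO-treated rad21-/- (1.219 CPM, others 0.688 to 0.737). All 7 were the highest library of their group.

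The response of *lmo2* to BIO differed between stag2b-/- and wild type by −0.7425 on the log2 scale, by the interaction test. The call was lost without replicate 4 of every group and with only the libraries compared in the fit (adjusted p = 0.0541 and 0.0831 by edgeR). It was also lost in some of the fits with a single library left out.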

How the results depend on the processing

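The 9, 6 and 3 calls among the 10 genes in untreated rad21-/- against wild type, rad21+/- against wild type and rad21-/- against rad21+/- changed little (9 to 10, 6 to 7 and 3 with each library left out, and 9, 7 and 3 by DESeq2). Calls near the threshold moved more. With each library left out the count ran from 0 to 3 for untreated stag2b-/- against wild type, 0 to 2 for BIO in stag2b-/-, 0 to 3 for BIO in wild type, 0 to 2 for the interaction of stag2b-/- with BIO and 3 to 5 for treated rad21+/- against treated wild type. With only the libraries compared in the fit the counts were 1, 0 and 0 for stag2b-/- against wild type, BIO in stag2b-/- and that interaction, and 2 for BIO in rad21+/-. Without replicate 4 of any group, the counts were 1 for stag2b-/- against wild type, 0 for BIO in stag2b-/-, 0 for that interaction and 1 for BIO in wild type, and *lmo2* in untreated rad21-/- lost its call (adjusted p = 0.0913). DESeq2 called 3 genes for BIO in rad21+/-, 1 for BIO in wild type and 2 for the interaction of stag2b-/-. RLE normalization called 1 each for BIO in rad21+/- and in wild type. With the replicate block the counts were 2 for BIO in rad21+/-, 2 for BIO in wild type (*lmo2*, adjusted p = 0.0479, and *myb*, adjusted p = 0.0201) and 2 for the interaction of stag2b-/- (*etv2*, adjusted p = 0.0493), and the block changed no other call of a member. For BIO in wild type and the interaction the numbers did not pair the libraries. Other calls of single genes moved across the threshold. With no filter on low counts *gfi1aa* in treated rad21+/- (adjusted p = 0.0599) and *fli1a* in treated rad21-/- (0.0547), each against treated wild type, were lost. With only the libraries compared in the fit *fli1a* was lost in the latter (0.0895), and *etv2* in treated rad21+/- (0.0269) and *gata2a* (0.0409) and *myb* (0.0320) in treated stag2b-/- were gained against treated wild type. The causes were not tested.

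No called log2 change reversed its sign. Of 1520 values from fits with a library left out 78 changed sign, and of 1010 values from the other alternatives 15 did. All of these were called in neither fit. They were at most 0.447 in size in the main fit and at most 0.318 in the alternative. The count over all genes ran from 392 to 2480 around 1300 for untreated stag2b-/- against wild type and from 6 to 1836 around 775 for BIO in rad21+/-. It was highest with the replicate block for BIO in rad21+/- and for BIO in wild type (4705 against 3709 in the main fit). Under RLE the 80 group means of the genes moved by at most 0.975%. Depth limited *runx1* most.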
